A study of Homo sapiens with 8 samples.

Results

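The genes described here encode cohesin, the ring-shaped protein complex that holds sister chromatids together, and the proteins that open, lock and release that ring. They are the core subunit genes SMC1A, SMC3, RAD21, STAG1 and STAG2 and the regulator genes PDS5A, PDS5B, WAPL, ESCO2 and CDCA5. They were read by every probe set that the platform annotation gives to one of these symbols (WAPL was also searched as WAPAL), which came to 35 of the 54675 probe sets on the array. The annotation gave 0 of them to a second gene, which does not show that each binds only its own transcript. After 1 probe set had been taken for each gene, they were 10 of 14731 genes tested. The genes were picked by name and not by a measured value, but with earlier results of these data known.

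The study treated HTETOP cells, which descend from the human fibrosarcoma line HT1080 and carry TOP2A, the gene of topoisomerase II alpha, under tetracycline control. It asked which transcripts change when TOP2A is shut off or when the enzyme is inhibited. A first group of cells received dexrazoxane at 100 µM for 24 h and was set against its own vehicle (3 arrays each), and a second received doxycycline at 1 µg/ml for 24 h and was set against a separate vehicle (1 array each). All cells, vehicle cells included, carried the controllable TOP2A, and every array received RNA pooled from 3 passages. For the doxycycline pair these were passages 15 to 17. The labels do not state that replicates were grown separately, so each p-value reflects array-to-array spread that could be technical.

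The values are log2 expression values made by the authors with RMA, which puts the arrays it is run on onto a common scale. Array medians were 4.81 and 4.82 for doxycycline and its vehicle and 5.49 to 5.57 for the 6 arrays of the dexrazoxane comparison, so each treatment was read only against its own vehicle. The number of arrays limits the precision. TOP2A stood at 10.88 ± 0.34 with dexrazoxane and 12.45 ± 0.09 with vehicle (SD, n = 3 each), and at 6.02 with doxycycline against 11.98 with its vehicle. Of the marker genes used to check the label, 8 of 8 mesenchymal genes reached the filter on low values, among them VIM and FN1. So did 2 of 5 epithelial genes (CLDN4 and KRT5, but not EPCAM, CDH1 or KRT14), 1 of 3 leukocyte genes (CD3E, but not PTPRC or CD14) and 2 of 3 endothelial genes (PECAM1 and VWF, but not CDH5).

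Cohesin is a ring of the paired ATPases SMC1A and SMC3, closed by the kleisin RAD21, with either STAG1 or STAG2 bound to the kleisin. PDS5A and PDS5B sit on the ring and, with WAPL, open it so that it comes off DNA. During replication ESCO2 acetylates SMC3 and CDCA5 (sororin) then displaces WAPL, which keeps the sisters tied until mitosis. Cohesion and catenation of sister DNAs, which topoisomerase II resolves, are the physical links between sister chromatids. ESCO2 and CDCA5 are cell cycle genes whose transcripts are most abundant in cycling cells, while the core subunits are also used in chromatin looping outside division.

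With dexrazoxane the cohesin genes lay a little below vehicle. The mean log2 difference (dexrazoxane minus vehicle) was below 0 for 10 of 10 genes, with a median of -0.25 and a range of -0.50 for ESCO2 to -0.01 for WAPL, while the median of all genes tested was 0.02 and 45.4% of them lay below 0. Leaving out a single array changed the size of that median. It was -0.40, -0.11 and -0.16 without dexrazoxane array 1, 2 or 3. Without vehicle array 1, 2 or 3 it was -0.12, -0.35 and -0.31. Leaving out both arrays of the same number changed it less, to -0.26 (number 1), -0.20 (number 2) and -0.23 (number 3). In 9 of 10 genes the dexrazoxane array was below the vehicle array in all 3 same-numbered pairs, against 19.4% of all genes tested, and 0 of 10 were higher in all 3 pairs, against 25.7%. WAPL was the exception among the 10. These genes follow one another across the arrays, so they are not independent counts. ESCO2 was the 1 gene called by limma with the replicate number as a block (the paired fit), as lower, where that fit called 2.44% of all genes lower and 2.42% higher (4.87% in all) at an adjusted p under 0.05. Without the block limma called 0 of the 10 cohesin genes and 0% of all genes, and the lowest adjusted p among the 10 was 0.941. At an unadjusted p under 0.05 that fit held 1 of the 10, again ESCO2, and 2.04% of all genes on the lower side (3.16% on the higher).

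The range between arrays within a group, part of which same-numbered arrays shared, was wider than the treatment difference. The paired fit takes out the shared part, so this range is not the spread that its SEs measure. For 10 of 10 genes the difference was smaller than the range over the 3 arrays of at least 1 of the groups, and for 2 of 10, ESCO2 and CDCA5, it exceeded the SD of both groups. Array 1 gave the highest value for 8 of 10 genes among the dexrazoxane arrays and for 9 of 10 among the vehicle arrays, where it was the highest for 39.6% and 42.8% of all genes tested. Over the 6 arrays the Pearson correlation between 2 cohesin genes had a median of 0.82 over 45 pairs of genes. It ran from -0.17 for PDS5B with ESCO2 to 0.99 for STAG1 with STAG2. All pairs of genes are read on the same 6 arrays, which hold both groups, so these correlations are given as a description only.

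**Figure D1:**
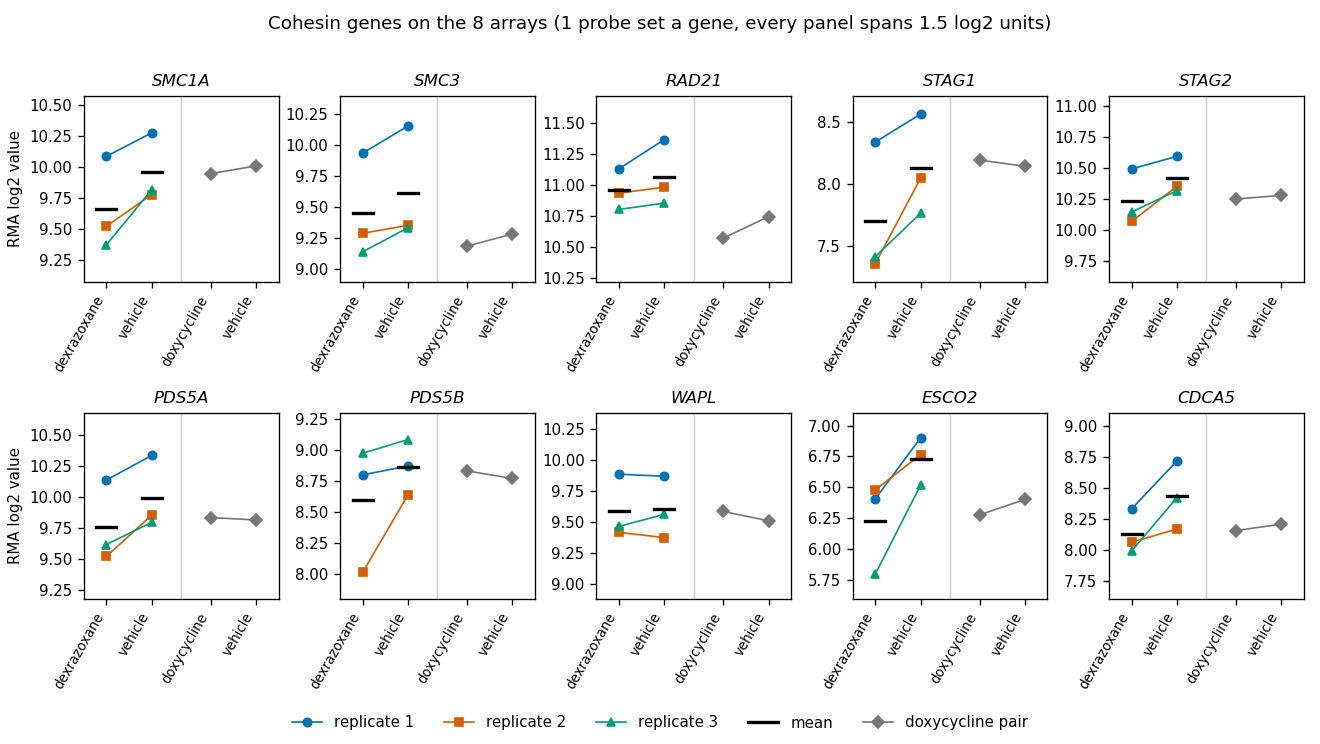
RMA log2 values of the probe set that stood for each of the 10 cohesin genes, with 3 dexrazoxane arrays and 3 vehicle arrays joined by replicate number (bars are group means) and the doxycycline array joined to its vehicle array. Every panel spans 1.5 log2 units. In 9 panels the dexrazoxane end of all 3 lines is the lower one, and in the ESCO2 panel the groups do not overlap.

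Among the core subunits, SMC1A, one of the ATPases of the ring, had log2 values of 10.09, 9.52 and 9.37 on the dexrazoxane arrays, against 10.27, 9.78 and 9.82 on the vehicle arrays (probe set 201589_at). The groups overlapped because array 1 was high in both. The difference was -0.30 ± 0.08 (SE, paired fit, n = 3 pairs), with a limma paired adjusted p of 0.0788. A second SMC1A probe set above the filter (217555_at) differed by -0.09, with -0.31, -0.01 and 0.05 in the 3 pairs. It did not share the direction in every pair.

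SMC3 encodes the partner ATPase and the target of ESCO2. Its brightest probe set (209259_s_at) read 9.93, 9.29 and 9.14 with dexrazoxane and 10.15, 9.35 and 9.33 with vehicle. Array 1 was the highest of its group in both cases, and the groups overlapped. The difference was -0.16 ± 0.08 (SE, limma paired adjusted p = 0.260). A pair of dimmer SMC3 probe sets showed larger differences. Probe set 209257_s_at read 7.08, 7.67 and 7.83 with dexrazoxane against 7.62, 8.04 and 8.17 with vehicle, a difference of -0.42. Probe set 209258_s_at read 6.23, 6.71 and 6.75 with dexrazoxane against 6.69, 7.05 and 7.33 with vehicle, a difference of -0.46. In these sets array 1 was the lowest of its group, the reverse of its place in the brightest set. When all 54613 probe sets other than controls were fitted one by one, the limma paired adjusted p was 0.478 for the brightest set and 0.0964 and 0.0833 for the others.

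RAD21, the kleisin that separase cuts at anaphase, also had probe sets that differed in size. The brighter (200608_s_at) read 11.13, 10.94 and 10.81 with dexrazoxane and 11.37, 10.99 and 10.86 with vehicle, a difference of -0.11 ± 0.08 (SE, limma paired adjusted p = 0.444). The dimmer (200607_s_at) read 8.85, 9.01 and 8.68 with dexrazoxane and 9.40, 9.55 and 9.01 with vehicle. There the dexrazoxane arrays lay below the vehicle arrays without overlap, but the highest dexrazoxane array (9.012) and the lowest vehicle array (9.013) nearly met, and the difference was -0.48 (limma paired adjusted p of 0.0748 among all probe sets). The difference between the probe sets of SMC3 or RAD21 was not tested, and where in the transcript each probe set lies was not examined.

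STAG1 and STAG2 encode alternative subunits, one per ring. STAG1 (202293_at) read 8.34, 7.36 and 7.42 with dexrazoxane against 8.57, 8.05 and 7.77 with vehicle. The groups overlapped through array 1, and the difference of -0.42 ± 0.10 (SE) just missed the bound in the paired fit (limma adjusted p = 0.0529). A second STAG1 probe set (202294_at) differed by -0.33, below 0 in all 3 pairs. STAG2 (209022_at) read 10.49, 10.07 and 10.14 with dexrazoxane against 10.59, 10.35 and 10.32 with vehicle. Its difference was -0.19 ± 0.08 (SE, limma paired adjusted p = 0.201), and its 3 probe sets gave -0.19, -0.27 and -0.19. Of the core genes, 0 of 5 were called in either fit.

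PDS5A and PDS5B encode the paralogous HEAT-repeat proteins that work with WAPL in release and with CDCA5 in holding the ring closed. PDS5A (212138_at) read 10.14, 9.52 and 9.62 with dexrazoxane and 10.34, 9.85 and 9.80 with vehicle, a difference of -0.24 ± 0.08 (SE, limma paired adjusted p = 0.113). Its 4 probe sets, all above the filter, differed by -0.26 to -0.14. PDS5B (207956_x_at) read 8.80, 8.01 and 8.97 with dexrazoxane and 8.87, 8.64 and 9.08 with vehicle. Most of its difference of -0.27 ± 0.11 (SE, limma paired adjusted p = 0.210) came from pair 2, at -0.63, against -0.07 and -0.11 in the others. A second PDS5B probe set (204742_s_at) read 6.62, 6.00 and 6.49 with dexrazoxane and 6.70, 6.69 and 6.90 with vehicle, without overlap, a difference of -0.40 with pair 2 again the widest at -0.70. Without dexrazoxane array 2 the PDS5B difference in the fit without the block was 0.02.

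WAPL, which pulls cohesin off chromosomes, stood apart from the other 9 genes by its size of difference. It read 9.89, 9.42 and 9.46 with dexrazoxane and 9.87, 9.37 and 9.56 with vehicle (212264_s_at), and the groups overlapped fully. The difference was -0.01 ± 0.07 (SE, limma paired adjusted p = 0.941), with a 95% interval of -0.19 to 0.16 in that fit. The other bright WAPL probe sets gave -0.08 (212267_at) and 0.01 (1554441_a_at). The remaining WAPL set, under the filter (217218_at), gave -0.40, -1.31 and 0.61 in the 3 pairs, the widest scatter of any cohesin probe set. The intervals of several other members overlap that of WAPL, for example -0.29 to 0.07 for RAD21, and the difference between WAPL and the rest was not tested.

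ESCO2, the acetyltransferase of replicating chromatin, gave the largest difference of the 10. It read 6.41, 6.48 and 5.80 with dexrazoxane (6.23 ± 0.37, SD, n = 3), against 6.90, 6.77 and 6.52 with vehicle (6.73 ± 0.19, SD, n = 3), on probe set 235588_at. All 3 dexrazoxane arrays lay below all 3 vehicle arrays, as for 3.62% of all genes tested. ESCO2 fell by 0.50 ± 0.09 log2 units, or 1.41-fold (SE over n = 3 pairs), with a limma paired adjusted p of 0.0294 and a limma adjusted p of 0.941 without the block. The pairs gave -0.49, -0.28 and -0.72.

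A second ESCO2 probe set (235178_x_at) read 5.91, 5.81 and 5.61 with dexrazoxane, against 6.33, 6.50 and 6.12 with vehicle. It too had no overlap, and differed by -0.54. The other ESCO2 probe sets were under the filter and differed by -0.13 and 0.03. The call for ESCO2 was lost without pair 1 (limma paired adjusted p = 0.108), without pair 3 (0.0912) and with the mean of its 4 probe sets (-0.28, 0.0569). In the fit over all 54613 probe sets, the limma paired adjusted p was 0.0952 and 0.0614 for the pair of bright sets. That fit called 0 of the 35 cohesin probe sets, with 0.0824% of all probe sets called lower and 0.0751% higher. Without the block limma called 0 of the 35 and 0.00183% of all probe sets.

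CDCA5 encodes sororin, which protects acetylated cohesin until mitotic kinases remove it. Its 1 probe set (224753_at) read 8.33, 8.07 and 7.996 with dexrazoxane and 8.72, 8.17 and 8.42 with vehicle. The groups overlapped by dexrazoxane array 1 alone, which lay above vehicle array 2. The difference was -0.31 ± 0.09 (SE, limma paired adjusted p = 0.0870). Without pair 1, 2 or 3 it was -0.27, -0.41 or -0.25, with a limma paired adjusted p of 0.272, 0.0230 or 0.322. Pair 2 was the narrowest at -0.11, so leaving it out had to widen the difference.

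Over all 35 cohesin probe sets, 20 were lower with dexrazoxane in all 3 pairs and 0 were higher in all 3, where 17.8% and 17.9% of all probe sets were. In 4 of 35 the dexrazoxane arrays lay wholly below the vehicle arrays, against 3.9% of all probe sets, and in 0 wholly above, against 4.61%. These 4 were the probe sets of ESCO2 (both bright ones), RAD21 (200607_s_at) and PDS5B (204742_s_at). Probe sets of one gene share a transcript and are not independent. Of the 35, 24 had a mean over the 8 arrays that reached the filter.

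**Figure D2:**
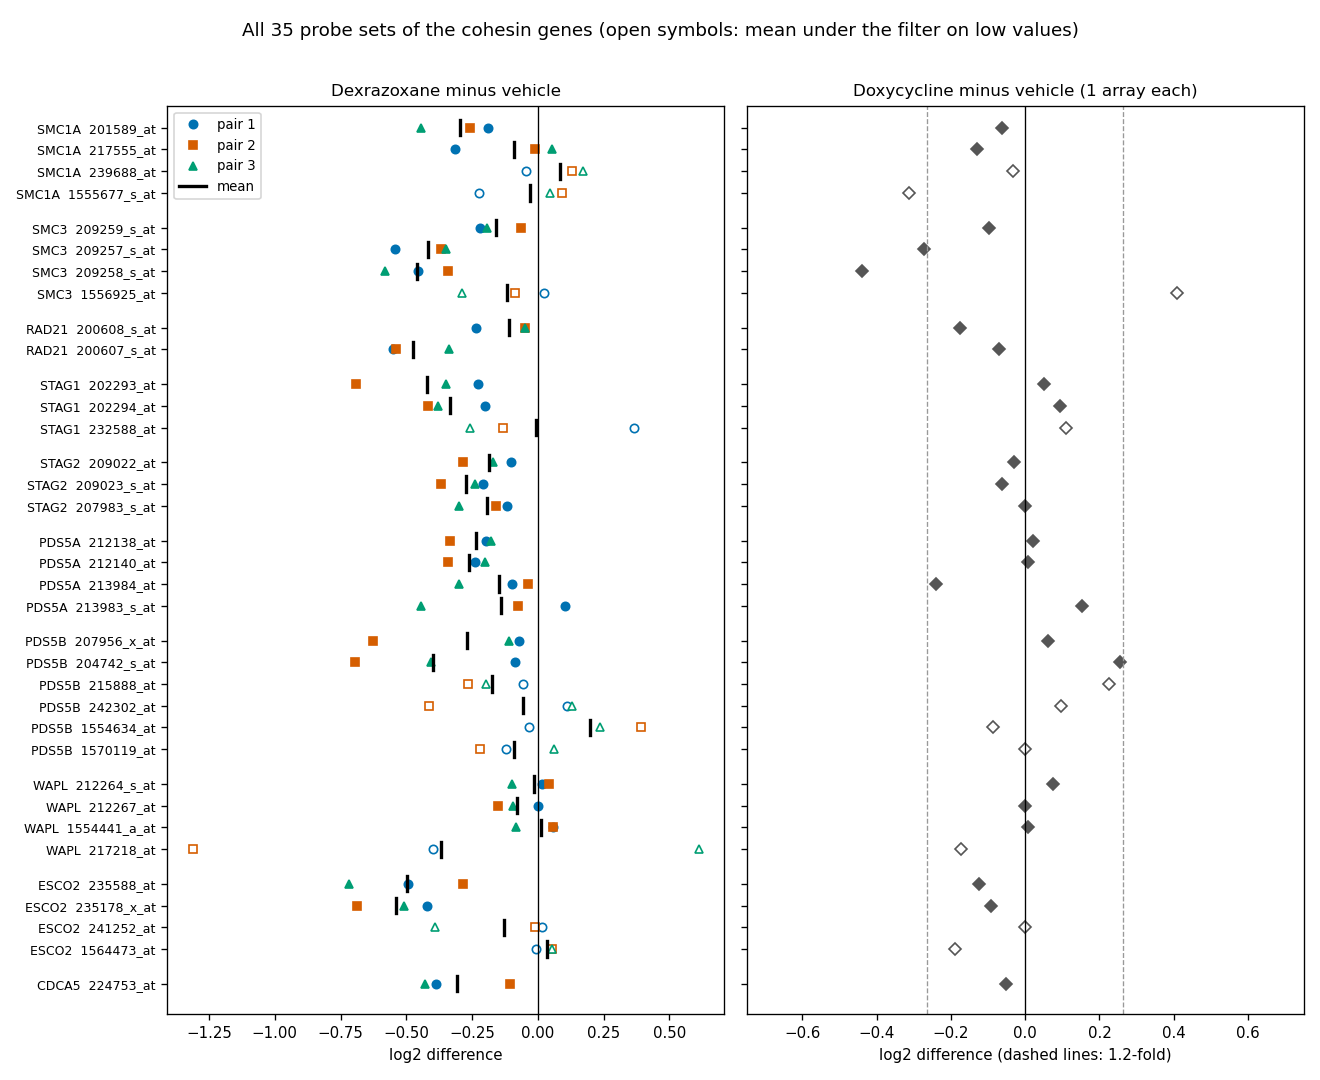
Log2 differences of all 35 probe sets of the cohesin genes, with dexrazoxane minus vehicle by same-numbered pair on the left (bars are means of the 3 pairs) and doxycycline minus vehicle on the right (1 array each, dashed lines at 1.2-fold). Open symbols are probe sets whose mean lay under the filter. Filled symbols of ESCO2, STAG1 and STAG2 lie left of 0 in every pair, those of WAPL lie around 0, and in the doxycycline pair 2 of the 3 filled symbols of SMC3 (209257_s_at and 209258_s_at) lie left of the dashed line.

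In the doxycycline pair, where TOP2A was silenced, none of the 10 genes differed by 1.2-fold or more. At that size 2.5% of all genes tested were higher and 3.43% lower. There is 1 array a group, so these differences have no error and no test. The median difference (doxycycline minus vehicle) over the 10 genes was -0.04, against 0.02 for all genes tested, with 6 below 0 and 4 above.

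RAD21 read 10.57 with doxycycline against 10.75 with vehicle, the largest difference of the 10 at -0.17. ESCO2 read 6.28 with doxycycline against 6.40 with vehicle (-0.12), and CDCA5 read 8.16 with doxycycline against 8.21 with vehicle (-0.05). SMC3 differed by -0.10 and SMC1A by -0.06. STAG2 (-0.03), PDS5A (0.02), STAG1 (0.05), PDS5B (0.06) and WAPL (0.08) differed by less than 0.1. STAG1, PDS5A and PDS5B, which were below vehicle in all 3 dexrazoxane pairs, were above it here.

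Among the 35 probe sets, 3 were at least 1.2-fold lower with doxycycline and 1 at least 1.2-fold higher, against 6.43% and 5.62% of all probe sets. The dimmer SMC3 sets accounted for 2 of the 3: 209258_s_at read 5.62 with doxycycline against 6.06 with vehicle (-0.44), and 209257_s_at read 6.73 with doxycycline against 7.00 with vehicle (-0.27). The same sets had the larger SMC3 differences with dexrazoxane. The third lower set (SMC1A, 1555677_s_at, -0.31) and the higher one (SMC3, 1556925_at, 0.41) were under the filter. In this pair 9.62% of all probe sets, and 4 of these 35, had identical values on both arrays.

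Other genes of the cohesion pathway were set beside the 10 in lists drawn from general knowledge, but chosen with earlier results of these data known. Loading and the acetylation cycle (NIPBL and MAU2, which load the ring, the second acetyltransferase ESCO1, the SMC3 deacetylase HDAC8, the boundary factor CTCF and NAA50) held 0 called genes of 6, with a median dexrazoxane difference of -0.13. MAU2 differed by 0.19 ± 0.08 (SE, limma paired adjusted p = 0.187), with its dexrazoxane arrays wholly above vehicle (as for 6.53% of all genes). HDAC8 differed by -0.18 ± 0.08, ESCO1 by -0.20 ± 0.12 and CTCF by -0.17 ± 0.08 (SE, limma paired adjusted p of 0.246 to 0.364). NIPBL differed by less than 0.001. The germline subunit genes REC8 and STAG3 differed by 0.16 ± 0.08 and 0.14 ± 0.09 (SE, limma paired adjusted p of 0.270 and 0.402). SMC1B and RAD21L1 lay under the filter.

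Of 13 genes that act in cohesion establishment at the replication fork, 5 fell and 0 rose with dexrazoxane in the paired fit, with a median of -0.19. That fit called 2.44% of all genes tested lower and 2.42% higher, and the median of all genes was 0.02. WDHD1, which couples the replicative helicase to polymerase alpha, fell by 0.61 ± 0.08, and the clamp loader genes RFC4 and RFC3 fell by 0.51 ± 0.07 and 0.43 ± 0.07 (SE, limma paired adjusted p of 0.0110 to 0.0236). The other fallers were CLSPN and DSCC1. RFC2 differed by -0.34 ± 0.09 (SE, limma paired adjusted p = 0.0692). PCNA differed by 0.13 ± 0.08 (SE, limma paired adjusted p = 0.384), with its dexrazoxane arrays wholly above vehicle (as for 6.53% of all genes). CHTF18 differed by 0.11, and the other 11 of the 13 lay below 0. Of 12 genes that protect centromeric cohesin or set its release, 4 fell and 0 rose, with a median of -0.26. CDK1, the mitotic kinase, fell by 0.53 ± 0.07, its partner CCNB1 by 0.40 ± 0.07 and the checkpoint kinase gene BUB1, which marks chromatin for shugoshin, by 0.40 ± 0.07 (SE, limma paired adjusted p of 0.0122 to 0.0263). The shugoshin gene SGO2 also fell. All 12 differences lay below 0, but 8 genes were not called. Among those 8, the separase gene ESPL1 differed by -0.05, PTTG1 by -0.06, PLK1 by -0.14 and the other shugoshin gene SGO1 by -0.14. The genes named in these lists were chosen from their values, by the rank of their p without the block or, for CLSPN, DSCC1 and SGO2, to complete the count. PCNA, CHTF18, ESPL1, PTTG1, PLK1 and SGO1 were named to show small or opposite differences. AURKB differed by -0.41 ± 0.11 (SE, limma paired adjusted p = 0.0851). Without the block limma called 0 of these genes.

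Cell cycle markers were also lower with dexrazoxane. The paired fit called 2.44% of all genes tested lower and 2.42% higher, and the median of all genes was 0.02. Of 18 S phase markers 15 fell and 0 rose in that fit, with a median of -0.53 and differences of -0.77 to -0.25. Of 18 G2/M markers 13 fell and 0 rose, with a median of -0.41 and differences of -0.67 to -0.26. Examples are PRIM1, a primase subunit gene (-0.61 ± 0.08), RRM2, a ribonucleotide reductase subunit gene (-0.52 ± 0.08), the replication factor gene CDC45 (-0.60 ± 0.12), the licensing gene CDC6 (-0.58 ± 0.08), HMMR (-0.60 ± 0.09), TTK (-0.60 ± 0.08), AURKA (-0.38 ± 0.08) and CKS2 (-0.36 ± 0.08; SE throughout, limma paired adjusted p of 0.0110 to 0.0398). Without the block limma called 0 of either list. The S phase range held 5 of the 10 cohesin genes (ESCO2, STAG1, CDCA5, SMC1A and PDS5B), and the other 5 ran from -0.24 for PDS5A to -0.01 for WAPL. That count rests on the marker nearest 0, TYMS at -0.25, which was not called. The next marker was FEN1 at -0.312, and of the cohesin genes ESCO2 and STAG1 alone lay below it. Fewer cells in a phase and less transcript per cell cannot be told apart in these bulk arrays, and the part of the cell cycle in the cohesin differences was not tested. With doxycycline the medians were -0.04 for S phase and -0.03 for G2/M markers.

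**Figure D3:**
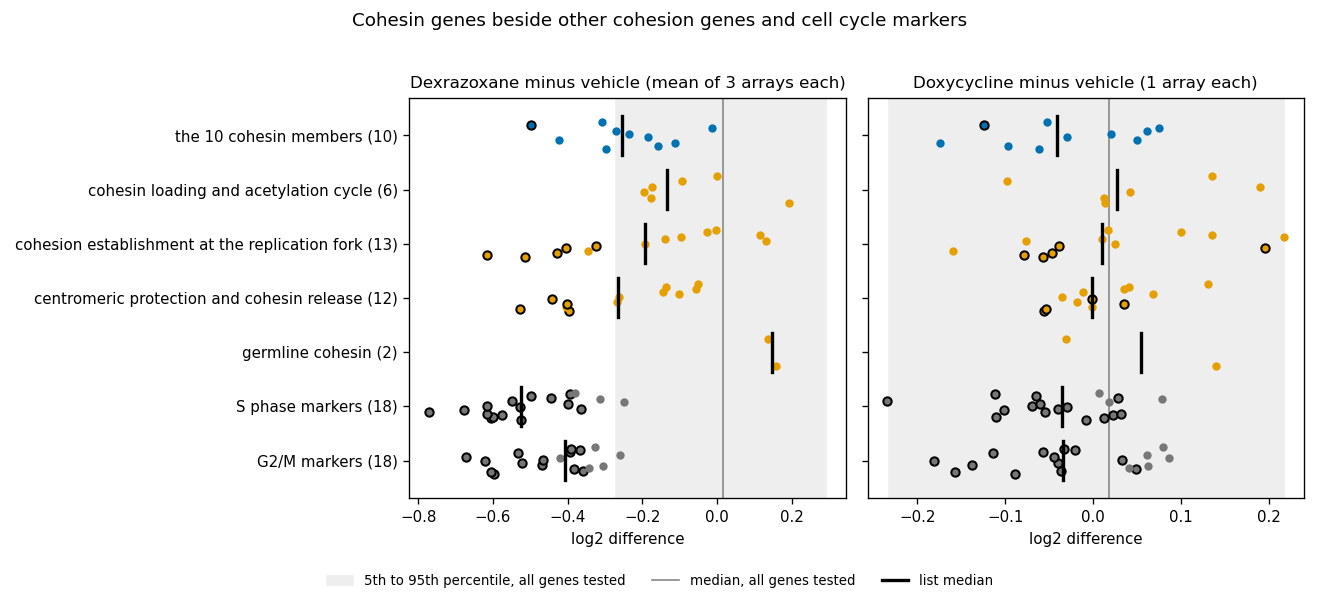
Log2 differences of the 10 cohesin genes, of 4 lists of other cohesion genes and of S phase and G2/M markers (number of genes tested in brackets), with dexrazoxane minus vehicle on the left and doxycycline minus vehicle on the right. Circles outlined in black were called lower with dexrazoxane in the paired limma fit; the grey band holds the central 90% of all genes. Cohesin medians of -0.25 (dexrazoxane) and -0.04 (doxycycline) compare with -0.53 and -0.04 for S phase markers.

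Over the 6 arrays of the dexrazoxane comparison the log2 values most like those of ESCO2 were those of DHX15, TRAP1 and CACYBP (Pearson r of 0.989, 0.985 and 0.985). Their own differences were -0.21, -0.19 and -0.18, and none was called. Those most like CDCA5 were PSRC1, ATXN2 and GINS2 (0.996, 0.994 and 0.992). PSRC1, a spindle protein gene, differed by -0.38 ± 0.09 (SE, limma paired adjusted p = 0.0535), ATXN2 by -0.19, and GINS2, a subunit of the replicative helicase, fell by 0.68 ± 0.12 (SE, limma paired adjusted p = 0.0219). These are the top of 14731 genes over 6 points that share arrays.

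The promoters of 8 of the 10 genes were searched for motifs of cell cycle control. RefSeq promoter windows (GRCh38.p14) ran from 250 bases before to 50 after the transcript start. The 8 genes had 11 windows, of which 2 were overlapping windows of SMC1A and 3 were windows of STAG2. Windows of RAD21 and ESCO2 were not included in the search. The counts of cohesin windows therefore leave out both genes, and whether their promoters hold these motifs was not tested. The motifs, searched on both strands, were CCAAT (the NF-Y box), TTTGAA and TTTCGAA (forms of the cell cycle genes homology region) and 4 cores of E2F sites, of which TTCCCGC occurred in 4 windows, TTGGCGC occurred in 4, and both TTGCCGC as well as TTCGCGC occurred in 0. At least 1 E2F core was in 6 of the 11 windows, against 13% of all 35116 windows and 17.3% of those of genes tested. CCAAT was in 6 of 11, against 34.6% of all windows, and TTTGAA in 2 of 11 against 15.2%. The windows of CDCA5, STAG1 and WAPL are printed to show one regulator and one core gene with E2F cores beside the gene whose difference was nearest to 0. They were picked with the differences known. PDS5A, PDS5B and windows of SMC1A and STAG2 also held E2F cores. A link between motifs and differences was not tested. Capitals mark the motifs.
CDCA5: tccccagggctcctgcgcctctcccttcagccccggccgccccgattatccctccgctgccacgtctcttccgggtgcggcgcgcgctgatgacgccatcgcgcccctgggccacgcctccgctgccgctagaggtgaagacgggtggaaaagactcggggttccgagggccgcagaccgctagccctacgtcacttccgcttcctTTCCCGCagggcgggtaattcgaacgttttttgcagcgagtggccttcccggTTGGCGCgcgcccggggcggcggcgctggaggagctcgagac
STAG1: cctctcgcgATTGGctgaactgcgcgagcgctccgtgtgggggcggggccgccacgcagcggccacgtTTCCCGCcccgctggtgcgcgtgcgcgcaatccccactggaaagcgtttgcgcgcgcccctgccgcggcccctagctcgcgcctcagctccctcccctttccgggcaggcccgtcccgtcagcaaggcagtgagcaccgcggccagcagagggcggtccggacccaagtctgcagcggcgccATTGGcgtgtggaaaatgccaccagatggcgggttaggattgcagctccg
WAPL: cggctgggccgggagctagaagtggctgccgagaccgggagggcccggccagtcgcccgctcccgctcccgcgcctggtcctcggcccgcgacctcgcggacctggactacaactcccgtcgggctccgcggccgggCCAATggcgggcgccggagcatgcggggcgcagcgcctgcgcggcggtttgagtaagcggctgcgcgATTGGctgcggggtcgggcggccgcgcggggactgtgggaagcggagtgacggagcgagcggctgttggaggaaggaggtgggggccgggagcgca

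The CDCA5 window lies at chr11:65083991-65084290 on the minus strand and holds TTCCCGC 44 bases before the start and TTGGCGC from base 9 after it. The STAG1 window, at chr3:136752329-136752628 on the minus strand, holds TTCCCGC 182 bases before the start and CCAAT in reverse (ATTGG) 241 bases before it and from base 1. The WAPL window, at chr10:86521743-86522042 on the minus strand, holds CCAAT 113 bases before the start and in reverse 46 bases before it, and none of the E2F cores. WAPL shared that absence with SMC3 and with windows of SMC1A and STAG2. A match is a description of letters and does not show binding.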

How the data were processed

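Expression was measured on 8 Affymetrix arrays. The authors deposited log2 values for each probe set, and the submitters' processing notes name RMA; no source used here states whether all arrays were processed together. Symbols came from the platform annotation (41097 with 1 symbol, 1801 with several, 11777 unnamed here). For 41043 probe sets the symbol was then taken from RefSeq (GRCh38.p14) by Entrez identifier, whether or not it changed. Each gene was represented by its brightest probe set (mean of 8 arrays), and genes below the 40th percentile of probe set means (log2 4.83) were dropped, which left 14731 of 19775 genes.

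Dexrazoxane was compared with vehicle by limma 3.58.1 in R 4.3.3 (two-sided, Benjamini-Hochberg adjustment over all genes, bound 0.05), without a block as the planned fit and with the replicate number as a block. Deviations from group means correlated at 0.82, 0.57 and 0.72 between same-numbered arrays, above 0.1 in each, so the numbers were taken as pairs. Between arrays of different numbers the correlations ran from -0.63 to 0.18. The highest of those (dexrazoxane array 3 with vehicle array 2) also lay above 0.1. The pairing rests on this check of the same data, and the labels do not state it. Both fits give the same differences, and the SEs printed are those of the paired fit. They are limma's moderated SEs, in which the variance of each gene is drawn towards that of all genes tested. A second fit took all 54613 probe sets other than controls without a filter. The doxycycline pair was given no test, and 1.2-fold was used to count differences.

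The genes, lists and tests were chosen with earlier results of these data known. Named genes were the 10 cohesin genes, TOP2A, up to 4 genes a list with the smallest p without the block, and the 3 genes most correlated with ESCO2 and with CDCA5. A few other list genes were named to complete a count or to show small or opposite differences. The fits were tested on simulated data. Alternatives covered the filter, the choice of probe set, centring, the variance model and leaving out arrays.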

Additional observations from a re-analysis of the deposited data

How the results depend on the processing

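The count of cohesin genes called with dexrazoxane was 0 without the block under every alternative run (filter, probe set choice, centring, variance model, 1 array left out). With the replicate block, and with the share of all genes called lower under the same setting, it was 1 (ESCO2, 2.44%), 1 with no filter (ESCO2, 1.16%), 1 of 8 with specific probe sets only (ESCO2, 2.15%), 1 of 9 with the mean of probe sets (SMC3 at -0.29 in place of ESCO2, 2.54%), 2 with each array centred on its median (ESCO2 and STAG1, 2.52%), 3 with the 60th percentile filter (ESCO2, SMC1A and STAG1, 4.61%) and 5 with trended and robust variance (those 3 with PDS5A and CDCA5, 5.78%). Leaving out 1 pair gave 0 to 2 (0.38% to 2.81% of all genes). Specific probe sets were those without an s or x in the suffix, where a gene had any. With these SMC3 and PDS5B fell under the filter. The block took called genes of the 4 pathway lists to 9, where the fit without it called 0. With the block and the 40th percentile filter, 1 of the 24 cohesin probe sets tested was called (ESCO2, 235178_x_at, limma adjusted p = 0.0468), where 0.558% of 32769 probe sets were called lower and 0.369% higher. Why the count moved between settings was not tested. The limma paired adjusted p of ESCO2 ran from 0.00398 to 0.108.

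Leaving out 1 array in the fit without the block gave medians of the 10 genes of -0.40 to -0.11, and STAG1 -0.74 to -0.20, ESCO2 -0.62 to -0.28, SMC1A -0.51 to -0.14, CDCA5 -0.44 to -0.17, PDS5A -0.43 to -0.067, STAG2 -0.31 to -0.099, SMC3 -0.40 to 0.11, RAD21 -0.22 to 0.038, PDS5B -0.46 to 0.022, WAPL -0.16 to 0.12 and CTCF -0.43 to 0.012. SMC3, RAD21 and CTCF turned above 0 without vehicle array 1, PDS5B without dexrazoxane array 2 and WAPL without either of those (0.12 and 0.073) or dexrazoxane array 3 (0.049). WAPL also turned in the paired fit without pair 3 (0.029). HDAC8 turned with the mean of its probe sets (0.046 in both fits) and CACYBP with specific probe sets (0.040 in both). Of 214 values of the 10 genes under alternatives, 191 kept direction and side of the threshold, 16 gained a call and 7 turned. In the doxycycline pair the count past 1.2-fold stayed at 0 under every alternative run, and PDS5A (-0.02) and WAPL (-0.02) lay on the other side of 0 with the mean of probe sets. The count of cohesin genes without overlap stayed at 1 with centring and with the mean of probe sets.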
